A study of Rattus norvegicus with 12 samples.

Results

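Voltage-gated sodium channels, transient receptor potential (TRP) channels, P2X receptors and acid-sensing ion channels were described across rat sciatic nerve stumps. The genes were taken by symbol pattern (Scn followed by a number and a or b, Trpa, Trpc, Trpm or Trpv with a number, P2rx and Asic), which gave 48 of the 30562 genes in the deposited table. They comprise 10 sodium channel alpha subunits, 4 beta subunits, 22 TRP channels, 7 P2X receptors and 5 acid-sensing channels. The 12 stumps fell into 4 groups of 3, called VP4:2, CC4:2, CC4:4 and Control. CC4:2 and CC4:4 stumps had conduits described as truncated cones of differing gradient, whose numbers are not explained further. VP4:2 was a drug-loaded group with verteporfin (spelled vertaporfin in the labels), which keeps the coactivator YAP from binding TEAD factors. The study asked how the conduits act on pain at the gene level, with VP4:2 added to test YAP. The sources used here give no strain, age, sex, time after surgery or dose, do not say what the control stumps received, and do not state which animal gave which stump. P-values therefore reflect how far the 3 libraries of a group lie apart, and that distance may be technical.

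Voltage-gated sodium channels carry the rising phase of the action potential, and their beta subunits set gating, trafficking and adhesion. TRP channels are cation channels opened by heat, cold, irritants, lipids, stretch or oxidants, P2X receptors open on extracellular ATP, and acid-sensing channels open on protons. Several are known from nociceptors, whose axons run in the sciatic nerve while their cell bodies lie in the dorsal root ganglion, and others from Schwann cells, macrophages or muscle.

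Library totals ran from 13763067 to 18632280 counts, and the 48 genes together held 7338 to 28162 counts per library. Nerve identity was checked on 9 Schwann cell markers, whose summed level was 1141 to 1706 CPM (counts per 1000000 counts of the TMM-scaled library) in VP4:2, 1256 to 2902 in CC4:2, 249 to 419 in CC4:4 and 65.5 to 568 in Control. Control replicate 1 held the lowest Schwann sum (65.5, against 568 and 266 in the other controls). Of 12 neuron and axon markers, Prdm12, which marks nociceptors, was at 0 in all 12 libraries, and the peptide gene Tac1 did not exceed 0.0548 CPM. The sum of the 12 was 53.9 to 69.8 CPM in VP4:2, 29.6 to 154 in CC4:2, 77.7 to 123 in CC4:4 and 48.9 to 134 in Control. Of the 8 that were tested, 2 were higher and 2 lower in CC4:2 than in Control, and 1 was higher and 2 lower in VP4:2 than in CC4:2. The growth cone gene Stmn2 had 37.9 to 48.0 CPM in VP4:2, 6.89 to 19.1 in CC4:2, 52.8 to 99.6 in CC4:4 and 29.1 to 85.6 in Control, and the peptide gene Calca had 0.219 to 0.376 CPM in VP4:2, 0.0564 to 0.209 in CC4:2, 0.271 to 0.684 in CC4:4 and 0.450 to 1.45 in Control. Skeletal muscle markers (6 of 8 in the table) differed strongly between libraries of the same group, with sums of 5204, 6442 and 198 CPM in VP4:2, 1043, 10706 and 179 in CC4:2, 1264, 2625 and 201 in CC4:4 and 4.499, 711 and 7229 in Control. Adipocyte markers (6) summed to 1373 to 2869 CPM in VP4:2, 1029 to 2840 in CC4:2, 386 to 1777 in CC4:4 and 404 to 545 in Control. In such bulk samples, fewer cells of a type and less RNA per cell cannot be told apart. Levels are compared within a gene, since no transcript lengths were used.

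Of the 48 genes, 36 passed the low-count filter and were tested, and 12 did not and are given as not detected. The filter asks for about 0.589 CPM in 3 libraries. Among those tested, 23 were over that level in all 12 libraries. Asic2 and P2rx6 had every library of exactly 1 group, CC4:2, over it, so these 2 could enter through the group where they were high. Asic4, the tested gene with the lowest summed count, had 86 counts, and Trpm1, the undetected gene with the highest, had 79. The edgeR quasi-likelihood test was run on all 15712 genes that passed, and genes with a Benjamini-Hochberg adjusted p under 0.05 were called. Of the 36 channel genes tested, 22 were called in at least 1 of the 6 comparisons and 14 in none. Called and not called refer to this fit unless another setting is named, and other settings called some further genes.

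Against Control, CC4:2 stumps had higher transcripts of Scn2b, Trpc1, Trpv6 and Scn3a, calls kept in all 14 alternative settings. Also higher were the nociceptor sodium channel Scn9a (kept in 10 of 14) and the capsaicin receptor Trpv1 (12 of 14). The ATP receptors P2rx3 (13 of 14) and P2rx7 (12 of 14) were higher too. Transcripts of Trpv2, Trpm2, Trpm6 and P2rx4 were lower, each kept in all 14. Of 36 channel genes, 13 were higher and 5 lower, so 50% were called, beside 43.5% of all genes tested. The share called higher was 36.1% of the channel genes and 20.3% of all genes, and the share called lower was 13.9% and 23.2%. The median log2 fold change was 1.12 over the channel genes and -0.05 over all genes. Against CC4:4, CC4:2 stumps likewise had 13 channel genes higher and 5 lower (50%, beside 39.2% of all genes). There 36.1% of the channel genes and 18.5% of all genes were called higher, and 13.9% and 20.7% lower, with medians of 0.97 and 0.01. Both comparisons share the CC4:2 libraries, and the shares are descriptions without a test of the list.

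VP4:2 stumps differed from CC4:2 stumps in 3 of 36 channel genes, all higher: the heat- and stretch-related channel Trpv2, the ATP receptor P2rx4 and the oxidant-opened channel Trpm2. That is 8.33%, beside 6.23% of all genes tested, and the share called higher in VP4:2 was 5.23% of all genes. No channel gene (0 of 36) was called lower by edgeR in VP4:2 against CC4:2, beside 0.999% of all genes, although 11 of 36 had an unadjusted p under 0.05 in either direction. DESeq2 called 3 lower, and limma-voom called Scn2a and P2rx3 lower. With the replicate number as a block, Trpv2 and P2rx4 were called and Trpm2 was not. The median log2 fold change was -0.48 over the channel genes and -0.03 over all genes.

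Against CC4:4, VP4:2 stumps had 5 channel genes higher and 4 lower (25%, beside 11.2% of all genes), and with totals in place of TMM scaling 7 were higher and 3 lower. The shares called were 13.9% higher and 11.1% lower, beside 5.7% and 5.51% of all genes. Few of these calls remained with a library left out, when 0, 0 and 1 genes were called without VP4:2 replicate 1, 2 or 3, and 2, 0 and 6 without CC4:4 replicate 1, 2 or 3. The calls over all genes fell as well, to 341, 389 and 737 without those VP4:2 replicates and 1028, 232 and 1175 without those CC4:4 replicates, from 1762 with all libraries. Against Control, VP4:2 stumps had 5 higher and 3 lower (22.2%, beside 18.9% of all genes), which is 13.9% higher and 8.33% lower beside 9.3% and 9.57%. The 8 calls became 4 without VP4:2 replicate 1, VP4:2 replicate 2 or Control replicate 3. In the NovaSeq X Plus samples alone neither comparison called a channel gene (0 of 37 tested), where 29 (VP4:2 against CC4:4) and 19 (VP4:2 against Control) of 15800 genes were called.

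Between CC4:4 and Control stumps edgeR called 0 of 36 channel genes and 0% of all genes. At an unadjusted p under 0.05 there were 3 channel genes and 830 genes in all, and DESeq2 and limma-voom each called 0 channel genes. Leaving out Control replicate 1 called 1 channel gene, Trpm2, which was lower in CC4:4, among 295 of 15975 genes. The 3 channel genes at an unadjusted p under 0.05 with all libraries included Scn2b (log2 fold change 0.70 ± 0.31 SE, edgeR adjusted p = 0.93) and Trpm2 (-0.64 ± 0.24, 0.93).

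**Figure D1:**
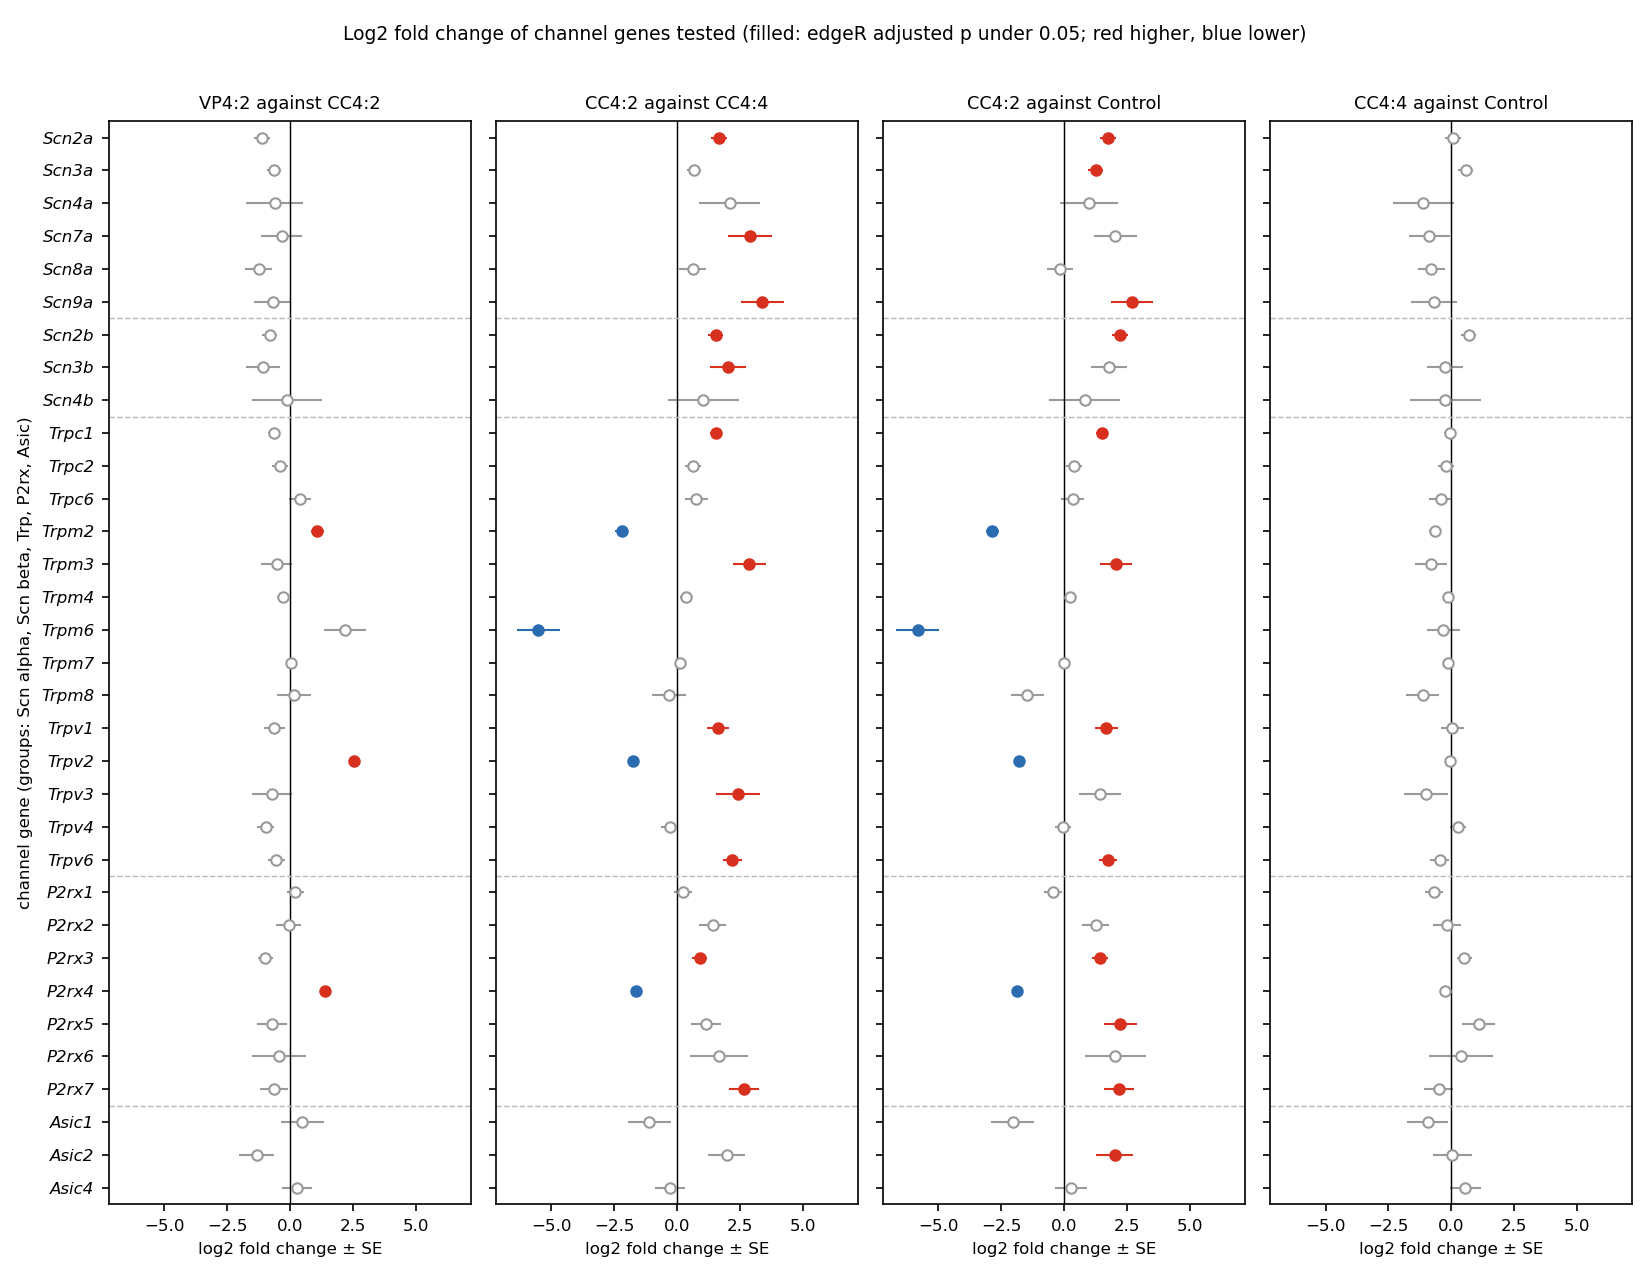
Log2 fold change with its standard error (horizontal axis) for 33 of the 36 channel genes tested (rows, grouped by family) in 4 comparisons, from the edgeR fit over 12 libraries with 3 per group. Filled points passed an adjusted p under 0.05; the panels of CC4:2 against CC4:4 and against Control each hold 12 filled red and 4 filled blue points, VP4:2 against CC4:2 holds 3 red points, and CC4:4 against Control holds none.

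Of 7 sodium channel alpha subunits tested, 3 were higher and 1 lower in CC4:2 than in either CC4:4 or Control, 0 were called in VP4:2 against CC4:2, and 1 was lower in VP4:2 than in CC4:4 and than in Control. In CC4:2 that was 42.9% higher and 14.3% lower, beside 18.5% and 20.7% of all genes against CC4:4 and 20.3% and 23.2% against Control. The 1 lower in VP4:2 was 14.3%, beside 5.51% of all genes against CC4:4 and 9.57% against Control. The gene of the glial sodium-level sensor Scn7a (ENSRNOG00000029342), known from Schwann cells, had 584, 484 and 511 CPM in VP4:2, 997, 402 and 590 in CC4:2, 104, 71.4 and 91.4 in CC4:4 and 10.8, 371 and 103 in Control. Every VP4:2 and CC4:2 library lay above every other library, while the controls spread widely. Scn7a was higher in CC4:2 than in CC4:4 (log2 fold change 2.90 ± 0.88, adjusted p = 0.024), a call lost without CC4:2 replicate 1 or any CC4:4 replicate (adjusted p of 0.032 to 0.086 over the left-out libraries). Against Control it was not called (2.04 ± 0.85, adjusted p = 0.074), but it was called without Control replicate 1 and without Control replicate 2. The Schwann cell marker sum was likewise higher in every VP4:2 and CC4:2 library (at least 1141 CPM) than in the other 6 (at most 568), with 8 of 9 markers called higher in CC4:2 in each comparison. The part of Schwann cell content in the Scn7a difference was not tested.

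Scn9a, the nociceptor sodium channel whose loss abolishes pain in people, had 1.97, 1.45 and 2.49 CPM in VP4:2, 3.92, 1.86 and 3.76 in CC4:2, 0.528, 0.136 and 0.205 in CC4:4 and 0, 0.703 and 0.808 in Control. All VP4:2 and CC4:2 libraries lay above all CC4:4 and Control libraries. It was higher in CC4:2 than in CC4:4 (log2 fold change 3.40 ± 0.86, adjusted p = 0.010) and than in Control (2.71 ± 0.83, 0.022). The call against Control was lost without CC4:2 replicate 1 or 3 and in a fit of those 2 groups alone. The log2 fold change was 4.17 against CC4:4 without CC4:4 replicate 1 and 2.06 against Control without Control replicate 1. Scn9a and Scn7a lie next to each other in the RefSeq gene order (assembly GRCr8, chromosome 3), as do Scn3a and Scn2a.

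Scn2a, a neuronal alpha subunit, had 2.41, 1.72 and 2.06 CPM in VP4:2, 4.98, 3.44 and 5.17 in CC4:2, 1.76, 1.15 and 1.30 in CC4:4 and 1.18, 1.87 and 0.969 in Control. The 3 CC4:2 libraries were the highest of the 12. CC4:2 exceeded CC4:4 by 1.68 ± 0.33 on the log2 scale (adjusted p = 0.0027) and Control by 1.75 ± 0.33 (0.0019). VP4:2 stood 1.13 ± 0.32 below CC4:2 without a call in edgeR (log2 fold change -1.13, adjusted p = 0.061).

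Scn3a, an alpha subunit of developing neurons that injured sensory neurons take up again, had 6.47, 7.30 and 8.66 CPM in VP4:2, 10.4, 12.1 and 12.5 in CC4:2, 6.40, 5.49 and 10.1 in CC4:4 and 5.85, 5.70 and 3.07 in Control. The CC4:2 libraries were the 3 highest and VP4:2 lay between CC4:2 and Control. CC4:2 was higher than Control (log2 fold change 1.26 ± 0.29, adjusted p = 0.0057), a call that held with each of the 6 libraries left out. No other comparison of Scn3a was called in the main fit. Against CC4:4 (0.68 ± 0.28, 0.081) Scn3a was called by DESeq2, by limma-voom and with plain library totals. It was also called there in the NovaSeq X Plus samples alone and without CC4:4 replicate 3. The deposited counts were not whole in 12 of 12 libraries for Scn3a and in 10 of 12 for Scn2a, Scn9a and P2rx3, against at most 2 of 12 for any other channel gene, and how the authors divided reads between genes was not tested.

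Scn4a, the alpha subunit of skeletal muscle, was called in none of the 6 comparisons. It had 8.82, 9.83 and 1.30 CPM in VP4:2, 1.64, 27.5 and 1.46 in CC4:2, 2.70, 3.18 and 1.23 in CC4:4 and 1.52, 2.19 and 11.8 in Control. The 4 libraries with the highest Scn4a (CC4:2 replicate 2, Control replicate 3 and VP4:2 replicates 2 and 1) were also those with the highest skeletal muscle marker sums, at 10706, 7229, 6442 and 5204 CPM. Scn8a, the alpha subunit of mature nodes of Ranvier, averaged 1.01 ± 0.68 CPM in VP4:2, 2.42 ± 0.90 in CC4:2, 1.56 ± 0.74 in CC4:4 and 2.72 ± 0.45 in Control (SD, n = 3) and was called in none. Of the axonal neurofilament genes, Nefm had 55.5 CPM in CC4:2 replicate 1, 10.7 in CC4:2 replicate 3 and at most 2.64 CPM elsewhere, and Nefl had 0.162 to 0.219 CPM in VP4:2 and at least 0.451 CPM in each of the other 9 libraries.

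All 4 beta subunits, which bind the alpha subunits and also act in cell adhesion, were tested, and 1 was higher in CC4:2 than in Control, 2 in CC4:2 than in CC4:4 and 1 in VP4:2 than in Control. Those shares were 25%, 50% and 25%, beside 20.3%, 18.5% and 9.3% of all genes called higher. Scn2b had 10.1, 13.5 and 13.7 CPM in VP4:2, 16.6, 26.2 and 23.1 in CC4:2, 8.92, 4.68 and 9.16 in CC4:4 and 4.33, 6.32 and 3.39 in Control. Every CC4:2 library lay above every VP4:2 library, every VP4:2 library lay above CC4:4 and Control, and CC4:4 and Control overlapped. CC4:2 was higher than CC4:4 (log2 fold change 1.53 ± 0.31, adjusted p = 0.0032) and than Control (2.23 ± 0.32, 4.2e-04), and VP4:2 was higher than Control (1.41 ± 0.31, 0.013). The CC4:2 calls held with each library left out, and the VP4:2 call was lost without Control replicate 3 (adjusted p = 0.054). VP4:2 was not called against CC4:2 (-0.82 ± 0.30, adjusted p = 0.14).

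Scn3b had 3.18, 2.36 and 2.54 CPM in VP4:2, 12.9, 2.14 and 2.04 in CC4:2, 1.47, 1.76 and 0.889 in CC4:4 and 0.900, 2.81 and 1.21 in Control. CC4:2 replicate 1 stood far above the other 11 libraries. The call against CC4:4 (2.04 ± 0.71, adjusted p = 0.043) rested on that library, since the log2 fold change was 0.60 without it (adjusted p = 0.36), and it was also lost without any CC4:4 replicate. The same CC4:2 library held the highest Nefm level and the highest Schwann sum. Scn4b followed Scn4a, with 20.4, 17.8 and 1.08 CPM in VP4:2, 2.70, 39.0 and 1.20 in CC4:2, 6.92, 10.98 and 2.80 in CC4:4 and 0.900, 1.87 and 21.6 in Control, and was called in no comparison.

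**Figure D2:**
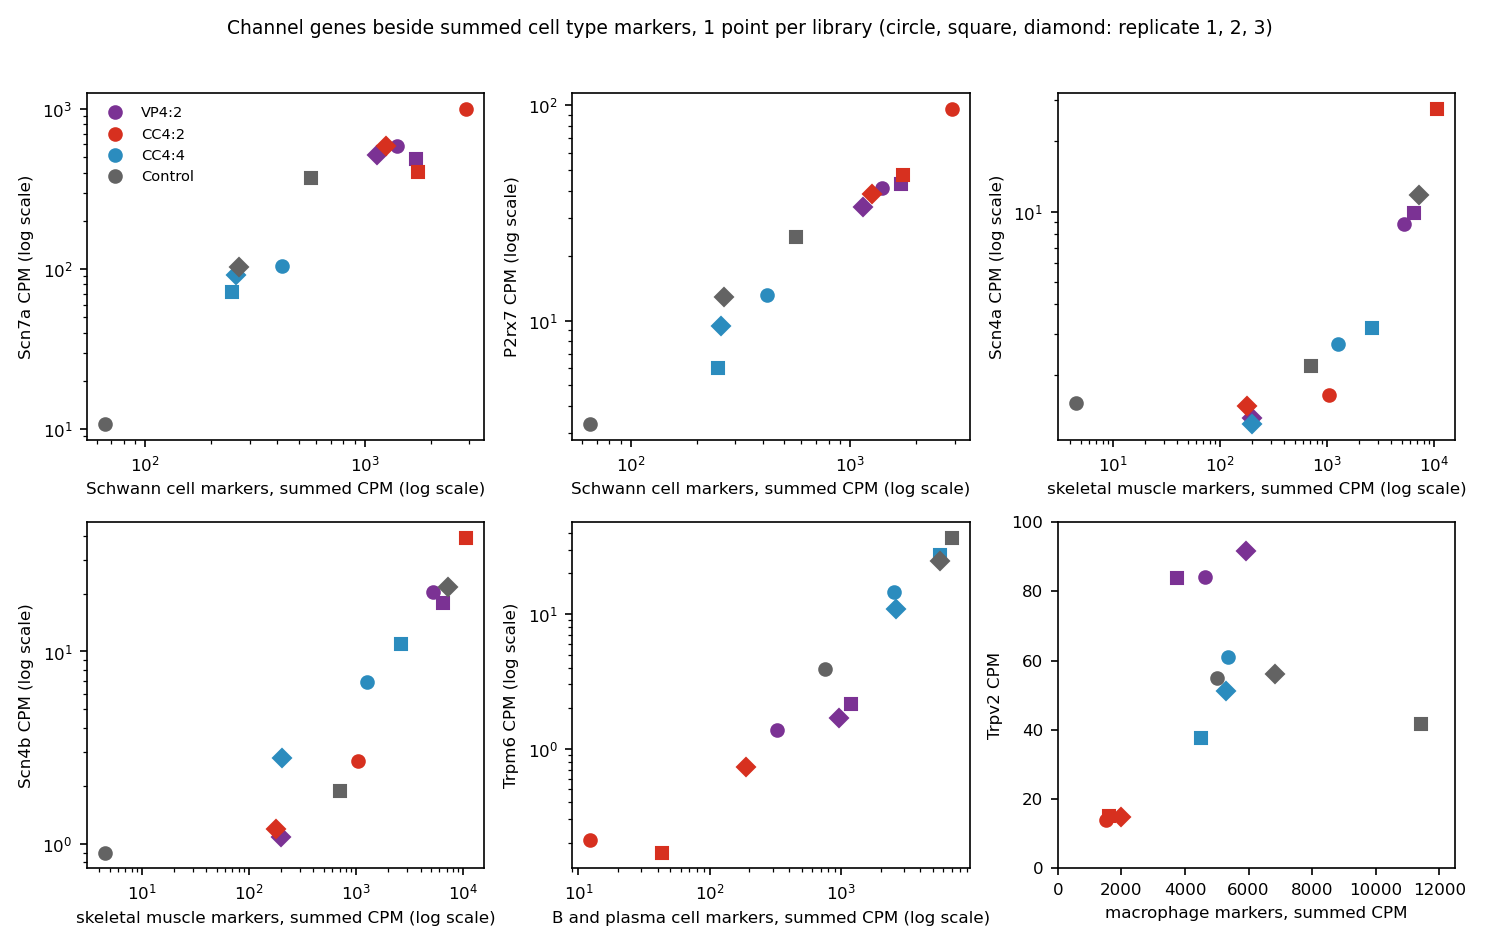
Each point is 1 of 12 libraries, coloured by group; the horizontal axis is the summed CPM of a cell type marker list and the vertical axis the CPM of a channel gene, on log scales except in the Trpv2 panel. Scn7a and P2rx7 are high where the Schwann cell sum is high, Scn4a and Scn4b where the skeletal muscle sum is high and Trpm6 where the B and plasma cell sum is high, while the 3 VP4:2 libraries hold 83.9 to 91.6 CPM of Trpv2 at macrophage sums of 3741 to 5910 CPM.

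Of 15 TRP channels tested, 5 were higher and 3 lower in CC4:2 than in Control, 6 higher and 3 lower in CC4:2 than in CC4:4, and 2 higher and 0 lower in VP4:2 than in CC4:2. In CC4:2 against Control that was 33.3% and 20%, beside 20.3% and 23.2% of all genes. Against CC4:4 it was 40% and 20%, beside 18.5% and 20.7%. In VP4:2 against CC4:2 it was 13.3% and 0%, beside 5.23% and 0.999%. VP4:2 had 4 higher and 3 lower than CC4:4 (26.7% and 20%, beside 5.7% and 5.51% of all genes). Against Control VP4:2 had 4 higher and 2 lower (26.7% and 13.3%, beside 9.3% and 9.57%). Among the vanilloid channels, Trpv2 (ENSRNOG00000003104), a channel tied to strong heat, stretch and macrophage phagocytosis, gave the firmest difference of the family. It had 84.3, 83.9 and 91.6 CPM in VP4:2, 13.98, 15.2 and 14.9 in CC4:2, 61.0, 37.5 and 51.2 in CC4:4 and 54.9, 41.6 and 56.1 in Control. All VP4:2 libraries lay above all others and all CC4:2 libraries below. VP4:2 exceeded CC4:2 by 2.56 ± 0.18 (5.89-fold, adjusted p = 9.6e-05), CC4:4 by 0.79 ± 0.17 (0.019) and Control by 0.77 ± 0.17 (0.014). CC4:2 was lower than CC4:4 (-1.76 ± 0.18, adjusted p = 1.2e-04) and than Control (-1.79 ± 0.18, 7.2e-05). The calls that involve CC4:2 held in all 14 alternative settings, whereas the excess of VP4:2 over CC4:4 was lost without any VP4:2 replicate or without CC4:4 replicate 2, and in the NovaSeq X Plus samples alone the excess over CC4:4 and over Control was not called.

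Macrophage markers moved with Trpv2 in part. Their sum over 8 genes was 3741 to 5910 CPM in VP4:2, 1532 to 1983 in CC4:2, 4515 to 5338 in CC4:4 and 5008 to 11432 in Control. Of the 8 markers, 4 were called higher in VP4:2 than in CC4:2, 0 in VP4:2 against CC4:4, and 1 lower in VP4:2 against Control. The macrophage sums of VP4:2 overlapped those of CC4:4 and Control. A large part of these sums was 1 gene, Lyz2. It had 3033, 1885 and 4032 CPM in VP4:2, 3892, 3376 and 3223 in CC4:4 and 3190, 8953 and 4969 in Control. The part of macrophage content was not tested. The sequence around the RefSeq start of Trpv2 is printed because the drug in VP4:2 acts on TEAD, whose core motif GGAATG was searched there on both strands, 250 bases before to 50 after the start (GRCr8, chr10:47771973-47772272, plus strand).
Trpv2: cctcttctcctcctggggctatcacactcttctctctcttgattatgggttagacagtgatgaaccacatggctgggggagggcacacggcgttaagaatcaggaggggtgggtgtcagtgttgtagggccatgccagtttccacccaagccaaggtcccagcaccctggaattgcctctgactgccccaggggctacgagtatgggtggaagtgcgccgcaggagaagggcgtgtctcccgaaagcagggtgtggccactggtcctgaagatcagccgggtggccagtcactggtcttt
The window holds no GGAATG, no ACAAAG (a SOX core) and no GAGGAAGT (a PU.1 motif) on either strand, which says only that these letters are not in it. GGAATG occurs in 14.2%, ACAAAG in 18.8% and GAGGAAGT in 2.42% of 33469 RefSeq promoters of the same length. Of 43 such promoters found for 38 of the channel genes, 3 hold GGAATG (Trpv3, Trpc2 and P2rx1), 5 hold ACAAAG and 1 holds GAGGAAGT (Scn2a).

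Trpv1, the capsaicin and heat receptor of nociceptors, had 2.85, 3.22 and 3.30 CPM in VP4:2, 5.19, 5.81 and 3.45 in CC4:2, 1.70, 1.56 and 1.37 in CC4:4 and 0.675, 2.81 and 1.05 in Control. Both VP4:2 and CC4:2 lay above CC4:4 and Control in every library. CC4:2 was higher than CC4:4 (log2 fold change 1.64 ± 0.44, adjusted p = 0.015) and than Control (1.68 ± 0.45, 0.012), and the call against CC4:4 was lost without CC4:4 replicate 3 (0.051). Against Control the log2 fold change was 2.50 without Control replicate 2, and the call was lost in a fit of those 2 groups alone. VP4:2 was not called against any group. Trpv6, a calcium-selective epithelial channel, had 2.63, 3.01 and 2.38 CPM in VP4:2, 5.88, 2.99 and 2.87 in CC4:2, 0.763, 0.610 and 1.16 in CC4:4 and 0.956, 1.33 and 1.21 in Control. The VP4:2 and CC4:2 libraries again lay above all others. CC4:2 exceeded CC4:4 by 2.20 ± 0.37 (adjusted p = 0.0014) and Control by 1.75 ± 0.37 (0.0035), with all leave-out calls kept. The VP4:2 group exceeded CC4:4 by 1.65 ± 0.37 (0.021; lost without VP4:2 replicate 1 or 2 or CC4:4 replicate 1 or 2) and Control by 1.20 ± 0.37 (0.043; lost without each of the 6 libraries in turn).

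Trpv3, a warmth channel of skin that sits beside Trpv1 in the RefSeq gene order, had 2.25, 3.65 and 1.30 CPM in VP4:2, 7.2, 3.10 and 1.62 in CC4:2, 0.645, 0.678 and 0.889 in CC4:4 and 0.112, 3.12 and 1.29 in Control. Its excess in CC4:2 over CC4:4 (2.42 ± 0.88, adjusted p = 0.048) was kept with 1 of 6 libraries left out (CC4:2 replicate 3) and was 1.67 without CC4:2 replicate 1. Trpv4, opened by hypotonic swelling, had 5.10, 5.26 and 4.38 CPM in VP4:2, 5.51, 14.2 and 9.29 in CC4:2, 12.7, 13.1 and 9.71 in CC4:4 and 13.6, 8.51 and 7.51 in Control. The VP4:2 libraries were the 3 lowest of the 12. VP4:2 was lower than CC4:4 (-1.27 ± 0.33, adjusted p = 0.035; kept without CC4:4 replicate 3 and lost without each of the other 5 libraries) and was not called against Control (-1.01 ± 0.33, 0.056) or CC4:2 (-0.97 ± 0.33, 0.12). With plain totals in place of TMM scaling the Trpv4 call was lost too. DESeq2 called Trpv4 lower in VP4:2 than in CC4:2 and than in Control. It was also called lower than in CC4:2 without CC4:2 replicate 1.

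Among melastatin TRP channels, Trpm2, which ADP-ribose and oxidants open and which is known from phagocytes, had 19.3, 21.7 and 21.5 CPM in VP4:2, 10.3, 9.02 and 10.02 in CC4:2, 49.3, 50.01 and 36.5 in CC4:4 and 41.8, 77.1 and 93.4 in Control. The CC4:2 libraries were the lowest, the VP4:2 libraries next, and CC4:4 and Control overlapped. CC4:2 was lower than CC4:4 (log2 fold change -2.21 ± 0.26, adjusted p = 2.3e-04) and than Control (-2.85 ± 0.26, 4.9e-05). VP4:2 was also lower than CC4:4 (-1.12 ± 0.25, 0.020; kept without CC4:4 replicate 3 and lost without each of the other 5 libraries) and than Control (-1.76 ± 0.25, 0.0031). VP4:2 exceeded CC4:2 by 1.09 ± 0.25 (adjusted p = 0.029), a call lost without each of the 6 libraries in turn (0.063 to 0.10), with the log2 fold change between 1.04 and 1.14. With the replicate number as a block the adjusted p was 0.051, so the call was lost there too.

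Trpm6, a channel joined to a kinase that carries magnesium, had the largest fold change of the 36 genes between CC4:2 and Control. It had 1.37, 2.15 and 1.68 CPM in VP4:2, 0.212, 0.169 and 0.731 in CC4:2, 14.4, 27.5 and 10.9 in CC4:4 and 3.94, 36.7 and 24.9 in Control. Every VP4:2 and CC4:2 library lay below every CC4:4 and Control library, and the CC4:2 levels rest on 3 to 14 counts. CC4:2 was lower than CC4:4 (-5.53 ± 0.86, adjusted p = 8.7e-04) and than Control (-5.84 ± 0.86, 5.1e-04). VP4:2 was lower than CC4:4 (-3.34 ± 0.73, 0.020; lost without any VP4:2 replicate or CC4:4 replicate 2) and than Control (-3.65 ± 0.74, 0.010). VP4:2 was 2.19 ± 0.84 above CC4:2 without an edgeR call (adjusted p = 0.16), though DESeq2 called it higher. Without CC4:2 replicate 3 the fall in CC4:2 was -6.47 against CC4:4 and -6.78 against Control. Without Control replicate 2 the fall from Control was -5.23 in CC4:2 and -3.04 in VP4:2, with the calls kept.

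The falls of Trpm2 and Trpm6 went with lower immune cell markers. The 6 neutrophil markers summed to 163 to 455 CPM in VP4:2, 46.2 to 63.3 in CC4:2, 581 to 982 in CC4:4 and 944 to 965 in Control. Most of the VP4:2 sum was Mmp9, at 79.2, 187 and 376 CPM, and Ncf1, at 69.5, 51.3 and 67.9. S100a9 had 5.04, 4.14 and 2.27 CPM in VP4:2 and 4.02, 2.71 and 1.93 in CC4:2. S100a8, Csf3r and Cxcr2 were also low in both groups. Of the 6, 2 were called higher in VP4:2 than in CC4:2. The 6 B and plasma cell markers summed to 324 to 1180 CPM in VP4:2, 12.3 to 189 in CC4:2, 2501 to 5618 in CC4:4 and 758 to 6934 in Control. In CC4:2 against Control, all 6 neutrophil, all 6 B and plasma cell, all 6 T and NK cell and 5 of 8 macrophage markers were called lower. In VP4:2 against Control, 5 of 6, 5 of 6, 6 of 6 and 1 of 8 were called lower. In Control replicate 1 both Trpm6 (3.94 CPM) and the B and plasma cell sum (758) were the lowest of the group. VP4:2 replicates 2 and 3 had higher sums than that library (1180 and 968) with lower Trpm6 (2.15 and 1.68 CPM). A large part of the B and plasma cell sum was Jchain, at 594 CPM in Control replicate 1 and 5870 in Control replicate 2. The part of these immune cells in the channel differences was not tested.

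Trpm3, a heat channel that neurosteroids open, went with the Schwann group of genes, at 30.6, 28.6 and 23.5 CPM in VP4:2, 57.2, 32.0 and 30.3 in CC4:2, 7.51, 4.68 and 4.10 in CC4:4 and 1.57, 19.3 and 7.75 in Control. All VP4:2 and CC4:2 libraries exceeded all others. CC4:2 was higher than CC4:4 (2.87 ± 0.66, adjusted p = 0.0066) and than Control (2.07 ± 0.64, 0.023). The call against Control was lost without CC4:2 replicate 1 or Control replicate 3 and in a fit of those 2 groups alone, and the log2 fold change was 3.13 without Control replicate 2. Trpm3 in VP4:2 exceeded that in CC4:4 by 2.34 ± 0.65 (0.043), a call lost without each of the 6 libraries in turn.

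Trpm7, the widely expressed magnesium channel-kinase related to Trpm6, averaged 113 ± 6.46 CPM in VP4:2, 112 ± 25.8 in CC4:2, 103 ± 5.88 in CC4:4 and 112 ± 14.1 in Control (SD, n = 3). Its log2 fold changes lay between -0.12 and 0.14 in the 6 comparisons, each with an SE of 0.17, and none was called. Trpm4, a calcium-activated channel for monovalent cations, ranged from 9.28 to 18.4 CPM over the 12 libraries with no call. Trpm8, the cold and menthol receptor, had 2.59 CPM in Control replicate 1 and at most 0.733 CPM in the other 11 libraries, and was not called.

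The canonical TRP channels carry calcium after receptor activation. Trpc1 had 5.32, 6.87 and 4.76 CPM in VP4:2, 10.1, 7.78 and 8.56 in CC4:2, 3.11, 2.37 and 3.49 in CC4:4 and 2.87, 3.83 and 2.58 in Control. CC4:2 lay above VP4:2, and VP4:2 above CC4:4 and Control, in every library. CC4:2 exceeded CC4:4 by 1.56 ± 0.24 (adjusted p = 9.2e-04) and Control by 1.51 ± 0.24 (8.5e-04), with all leave-out calls kept. VP4:2 exceeded CC4:4 by 0.92 ± 0.24 (0.036; lost without each of the 6 libraries in turn) and Control by 0.87 ± 0.24 (0.032; lost without VP4:2 replicate 1 or 2 or Control replicate 3), and was not called against CC4:2 (-0.64 ± 0.24, 0.14).

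Trpc6, which is opened by diacylglycerol, averaged 4.42 ± 1.53 CPM in VP4:2, 3.33 ± 0.704 in CC4:2, 1.97 ± 0.506 in CC4:4 and 2.59 ± 1.80 in Control (SD, n = 3), and was not called. Trpc2, the pheromone channel of the rodent vomeronasal organ, ranged from 1.30 to 2.88 CPM with no call.

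**Figure D3:**
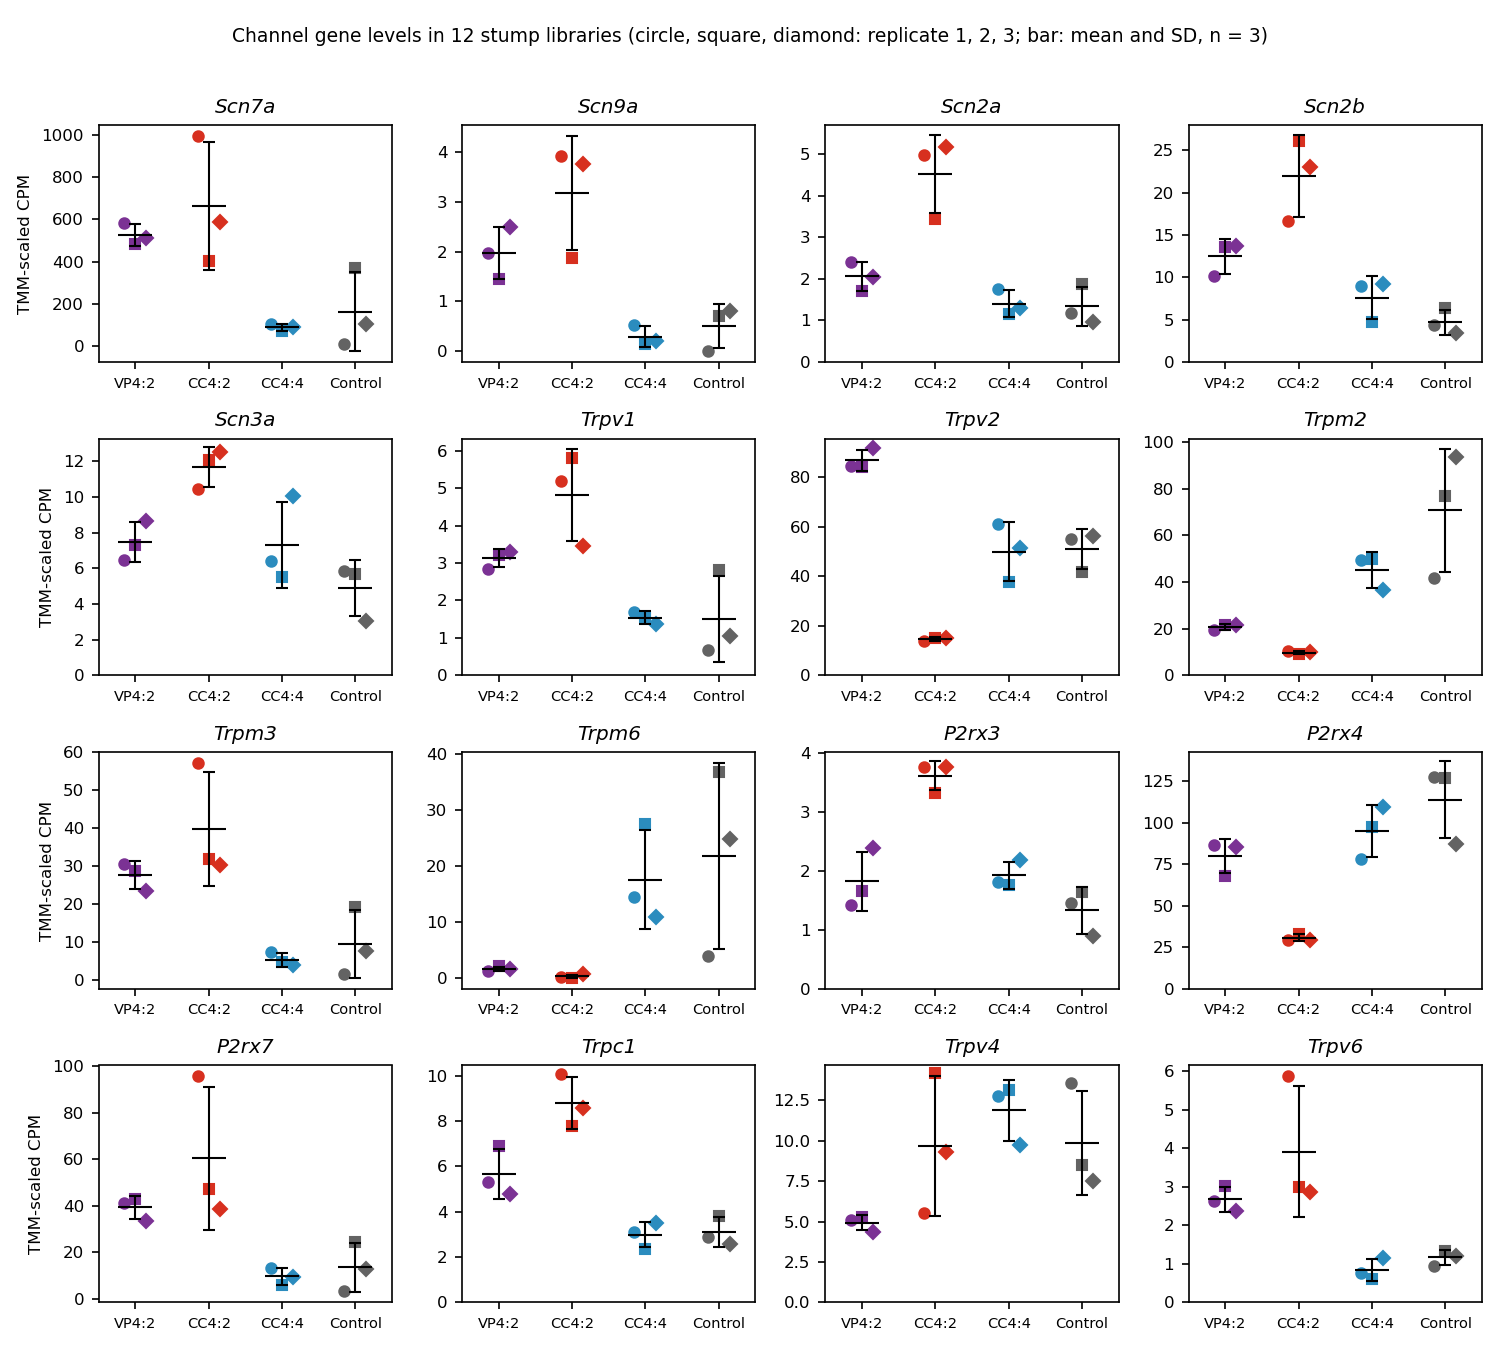
TMM-scaled CPM (vertical axes) of 16 channel genes in each of 12 libraries, by group on the horizontal axis; points are libraries and bars the mean with the SD of 3. Trpv2 stands at 83.9 to 91.6 CPM in VP4:2, above every other library, and at 13.98 to 15.2 in CC4:2, below every other library.

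Of 7 P2X receptors, all tested, 3 were higher and 1 lower in CC4:2 than in Control, 2 higher and 1 lower in CC4:2 than in CC4:4, 1 higher in VP4:2 than in CC4:2 and 1 higher in VP4:2 than in CC4:4. In CC4:2 against Control that was 42.9% and 14.3%, beside 20.3% and 23.2% of all genes. Against CC4:4 it was 28.6% and 14.3%, beside 18.5% and 20.7%. The 1 higher in VP4:2 was 14.3%, beside 5.23% of all genes against CC4:2 and 5.7% against CC4:4. The neighbouring genes P2rx4 and P2rx7 moved in opposite directions in CC4:2. P2rx4 (ENSRNOG00000001300), an ATP receptor of lysosomes and the cell surface in macrophages and microglia, had 86.4, 68.2 and 85.6 CPM in VP4:2, 29.6, 33.3 and 29.4 in CC4:2, 78.1, 97.4 and 109 in CC4:4 and 128, 127 and 87.2 in Control. The CC4:2 libraries were the 3 lowest, VP4:2 overlapped CC4:4 and lay just below Control, and CC4:4 overlapped Control. CC4:2 was lower than CC4:4 (log2 fold change -1.63 ± 0.18, adjusted p = 1.8e-04) and than Control (-1.89 ± 0.18, 6.2e-05), and VP4:2 was higher than CC4:2 (1.38 ± 0.18, 0.0013, 2.60-fold). All 3 calls held in all 14 alternative settings. VP4:2 was not called against CC4:4 (-0.25 ± 0.18, 0.40) or Control (-0.51 ± 0.18, 0.066). Macrophage marker sums were likewise lowest in CC4:2, and the part of macrophage content in P2rx4 was not tested.

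P2rx7 (ENSRNOG00000001296), the low-affinity ATP receptor that triggers interleukin 1 beta release in macrophages and is also found on Schwann cells, had 41.3, 42.9 and 33.5 CPM in VP4:2, 95.8, 47.3 and 38.5 in CC4:2, 13.1, 6.03 and 9.44 in CC4:4 and 3.32, 24.3 and 12.8 in Control. All VP4:2 and CC4:2 libraries lay above all CC4:4 and Control libraries. CC4:2 exceeded CC4:4 by 2.66 ± 0.60 (adjusted p = 0.0060) and Control by 2.17 ± 0.59 (0.013). The log2 fold change over Control was 2.92 without Control replicate 2, and the call was lost in a fit of those 2 groups alone. P2rx7 in VP4:2 exceeded that in CC4:4 by 2.04 ± 0.59 (0.049), a call lost without each of the 6 libraries in turn, and was not called against Control (1.55 ± 0.58, 0.086) or CC4:2 (-0.62 ± 0.56, 0.55). In Control replicate 1 both P2rx7 and the Schwann cell sum were the lowest of the 12 libraries, and in CC4:2 replicate 1 both were the highest. The part of Schwann cell content in P2rx7 was not tested.

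Counts of P2rx7 per count of P2rx4 were 0.478, 0.628 and 0.392 in VP4:2, 3.23, 1.42 and 1.31 in CC4:2, 0.168, 0.0619 and 0.0862 in CC4:4 and 0.0260, 0.191 and 0.147 in Control. The ratio was above 1 in each CC4:2 library and in no other, with VP4:2 between CC4:2 and the other groups. Macrophage marker sums were 1532 to 1983 CPM in CC4:2, 3741 to 5910 in VP4:2, 4515 to 5338 in CC4:4 and 5008 to 11432 in Control. Schwann cell marker sums were 1256 to 2902 CPM in CC4:2, 1141 to 1706 in VP4:2, 249 to 419 in CC4:4 and 65.5 to 568 in Control. The part of cell content in the ratio was not tested. Ratios are read between groups and not as relative abundance of the 2 receptors, since transcript length is not taken into account. In RefSeq (GRCr8) the genes lie next to each other on chromosome 12, both on the minus strand, with starts 71833 bases apart. Their windows of 250 bases before to 50 after the start are shown because the genes are neighbours and moved oppositely. Capitals mark the ACAAAG core of SOX factors, read here on the other strand as CTTTGT, and P2rx4 is at chr12:39523040-39523339 and P2rx7 at chr12:39594873-39595172.
P2rx4: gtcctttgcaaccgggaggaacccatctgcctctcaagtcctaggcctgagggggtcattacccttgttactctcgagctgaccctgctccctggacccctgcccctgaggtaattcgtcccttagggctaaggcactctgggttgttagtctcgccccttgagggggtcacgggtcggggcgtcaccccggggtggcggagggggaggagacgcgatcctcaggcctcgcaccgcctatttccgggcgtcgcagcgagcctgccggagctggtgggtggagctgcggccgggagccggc
P2rx7: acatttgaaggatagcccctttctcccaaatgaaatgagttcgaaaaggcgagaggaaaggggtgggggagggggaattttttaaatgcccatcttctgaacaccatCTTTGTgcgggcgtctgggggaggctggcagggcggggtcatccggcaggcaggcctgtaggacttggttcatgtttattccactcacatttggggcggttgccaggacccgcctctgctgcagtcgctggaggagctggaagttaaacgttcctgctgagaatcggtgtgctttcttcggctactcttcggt
The P2rx7 window holds 1 such match, which begins 143 bases before the start, and the P2rx4 window none; neither holds GGAATG or GAGGAAGT on either strand.

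**Figure D4:**
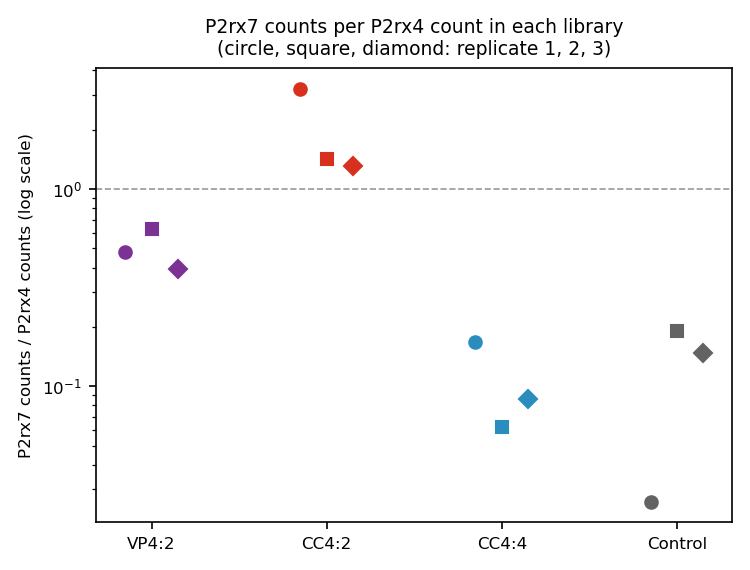
Deposited P2rx7 counts divided by P2rx4 counts (vertical axis, log scale) in each of 12 libraries, by group on the horizontal axis; the dashed line marks equal counts. The 3 CC4:2 libraries lie at 1.31 to 3.23 above the line, the VP4:2 libraries at 0.392 to 0.628, and the CC4:4 and Control libraries at or below 0.191.

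P2rx3, the ATP receptor of sensory neurons, had 1.43, 1.67 and 2.38 CPM in VP4:2, 3.76, 3.33 and 3.76 in CC4:2, 1.82, 1.76 and 2.19 in CC4:4 and 1.46, 1.64 and 0.888 in Control. The CC4:2 libraries were the 3 highest. CC4:2 exceeded Control by 1.43 ± 0.31 (adjusted p = 0.0039, kept with each library left out) and CC4:4 by 0.91 ± 0.30 (0.033, lost without each of the 6 libraries in turn). VP4:2 stood below CC4:2 with no edgeR call (-0.98 ± 0.30, 0.081). P2rx5 had 1.10, 1.67 and 4.22 CPM in VP4:2, 2.54, 5.08 and 3.81 in CC4:2, 3.34, 0.813 and 0.957 in CC4:4 and 0.675, 1.02 and 0.727 in Control. CC4:2 did not overlap Control and was higher than Control in the test (2.24 ± 0.65, 0.018, lost without CC4:2 replicate 2 or Control replicate 3). P2rx1, the ATP receptor of smooth muscle and platelets, P2rx2, the partner of P2rx3 in sensory neurons, and P2rx6 were not called. P2rx1 ranged from 3.08 to 8.98 CPM and P2rx6 from 0 to 3.67 CPM over the 12 libraries. P2rx2 averaged 1.48 ± 0.0768 CPM in VP4:2, 1.53 ± 0.398 in CC4:2, 0.562 ± 0.403 in CC4:4 and 0.643 ± 0.255 in Control, with the CC4:2 excess over CC4:4 at 1.42 ± 0.54 (0.057).

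Of 3 acid-sensing channels tested, 1 was called, in CC4:2 against Control (33.3% higher, beside 20.3% of all genes). Asic2 had 0.438, 0.698 and 1.41 CPM in VP4:2, 1.54, 2.42 and 2.45 in CC4:2, 0.587, 0.136 and 0.889 in CC4:4 and 0.112, 0.937 and 0.565 in Control. The CC4:2 libraries were the highest, and CC4:2 was the only group with every library over the filter level. CC4:2 exceeded Control by 2.02 ± 0.74 (adjusted p = 0.047), a call kept with 1 of 6 libraries left out (Control replicate 2, where it was 2.73), and CC4:4 by 1.98 ± 0.73 without a call (0.051). Asic1, the main proton-gated subunit of central neurons, had 1.97, 1.504 and 0.757 CPM in VP4:2, 2.06, 0.789 and 0.157 in CC4:2, 1.88, 2.51 and 2.12 in CC4:4 and 7.48, 0.703 and 4.20 in Control. Its controls overlapped every other group, and it was not called in the main fit. In CC4:2 against Control, Asic1 was called lower by DESeq2, without CC4:2 replicate 1 and without Control replicate 2. Asic4, for which no proton-gated current is known, ranged from 0.136 to 0.698 CPM with no call.

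The 12 channel genes not detected included the channels most used as nociceptor markers. Scn10a and Scn11a, the tetrodotoxin-resistant sodium channels of nociceptors, held 2 and 9 counts summed over 12 libraries, and Asic3, the acid sensor of sensory neurons, held 3. Trpa1, the irritant receptor, held 52 counts with at most 13 in a library. Scn1a held 58 counts, of which 38 came from VP4:2 replicate 1. The others were Trpm1 (79 counts), Trpm5 (48), Trpc4 (31), Trpc5 (15), Trpc7 (2), Asic5 (1) and Trpv5 (1). At these counts no difference between groups was detectable.

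Partner genes were read from 4 lists. The shares of all genes called higher and lower, for reading these lists, were 18.5% and 20.7% in CC4:2 against CC4:4. For VP4:2 they were 5.23% and 0.999% against CC4:2, 5.7% and 5.51% against CC4:4, and 9.3% and 9.57% against Control. Of 16 sodium channel partners and clustering proteins of the axon, all tested, 10 were higher and 0 lower in CC4:2 than in Control, with a median log2 fold change of 1.20 beside -0.05 over all genes. That is 62.5% higher and 0% lower, beside 20.3% and 23.2% of all genes. They included the scaffold ankyrin genes Ank2 (2.20 ± 0.28, adjusted p = 2.7e-04) and Ank3 (2.38 ± 0.33, 4.0e-04), the channel-binding factor Fgf14 (2.49 ± 0.45, 0.0015) and the trafficking protein Dpysl2 (0.79 ± 0.15, 0.0019). Against CC4:4, 9 (56.2%) were higher and 0 lower (median 0.97). In VP4:2 against CC4:2, 1 (6.25%) was lower and 0 higher, with a median of -0.51. It was Nedd4l, a ubiquitin ligase that removes sodium channels from the membrane (-0.72 ± 0.15, 0.017). VP4:2 had 8 (50%) higher than Control and 4 (25%) higher than CC4:4, with 0 lower in either. In CC4:2 against Control, 8 of 9 Schwann cell markers and 10 of 10 myelin markers were also called higher. Of 8 neuron and axon markers tested there, 2 were higher and 2 lower. The part of cell content in this list was not tested.

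Of 19 regulators of TRP channels and store-operated calcium entry, all tested, 6 were higher and 5 lower in CC4:2 than in Control (median 0.35), or 31.6% and 26.3% beside 20.3% and 23.2% of all genes. The endoplasmic calcium sensor Stim2 (0.67 ± 0.11, adjusted p = 0.0011), the Trpa1-Trpv1 linker Tmem100 (1.73 ± 0.27, 7.4e-04) and the kinases Prkce (1.18 ± 0.20, 0.0012) and Prkca (1.74 ± 0.34, 0.0024) were higher. Against CC4:4, 7 (36.8%) were higher and 5 (26.3%) lower. In VP4:2 against CC4:2 the lipoxygenase gene Alox12 was the 1 called (5.26%), higher (1.32 ± 0.34, 0.047, and 0.066 with the replicate block). In VP4:2, 4 (21.1%) were higher and 1 (5.26%) lower against each of CC4:4 and Control.

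Of 19 tested genes of extracellular ATP release, breakdown and G protein-coupled purine receptors (21 listed, 20 found), 3 were higher and 10 lower in CC4:2 than in Control, with a median of -0.65. That is 15.8% higher and 52.6% lower, beside 20.3% and 23.2% of all genes. The vesicular ATP transporter Slc17a9 averaged 2.92 ± 0.198 CPM in CC4:2 and 29.4 ± 7.58 in Control (SD, n = 3; -3.32 ± 0.27, adjusted p = 2.7e-05), and the UDP receptor P2ry6 was lower too (-1.83 ± 0.28, 6.2e-04). The ADP receptor P2ry1 (1.95 ± 0.21, 9.9e-05) and the adenosine receptor Adora1 (3.21 ± 0.47, 4.6e-04) were higher. Against CC4:4, 3 (15.8%) were higher and 8 (42.1%) lower. VP4:2 exceeded CC4:2 in Slc17a9 (2.01 ± 0.26, 0.0012) and P2ry6 (1.28 ± 0.28, 0.021), the 2 genes called of 19 (10.5%), both with the direction of P2rx4. VP4:2 had 1 (5.26%) higher and 3 (15.8%) lower than CC4:4, and 3 (15.8%) higher and 5 (26.3%) lower than Control. In CC4:2 against Control, 5 of 8 macrophage and 6 of 6 neutrophil markers were also called lower. In VP4:2 against CC4:2, 4 of 8 and 2 of 6 were called higher. The part of immune cell content in this list was not tested.

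Of 15 tested acid-sensing and pH-regulating genes outside the Asic family (17 listed), 3 were higher and 6 lower in CC4:2 than in Control (median -0.22), or 20% and 40% beside 20.3% and 23.2% of all genes. The proton-sensing receptors Gpr132 (-2.77 ± 0.28, adjusted p = 7.9e-05) and Gpr65 (-2.45 ± 0.29, 1.6e-04) were lower, and the bicarbonate cotransporter Slc4a4 was higher (2.01 ± 0.31, 5.9e-04). Against CC4:4, 3 (20%) were higher and 7 (46.7%) lower. In VP4:2, 4 of 15 (26.7%) were higher than in CC4:2, beside 5.23% of all genes, among them Gpr65 (1.73 ± 0.28, 0.0043). Slc4a4 was the 1 lower (6.67%, beside 0.999%), at -1.32 ± 0.30 (0.025, and 0.055 with the replicate block). VP4:2 had 0 higher and 2 (13.3%) lower than CC4:4, and 1 (6.67%) higher and 3 (20%) lower than Control. The part of immune cell content was not tested for this list either. In CC4:4 against Control edgeR called 0 genes of all 4 lists.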

How the data were processed

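Stranded poly(A) libraries of 12 sciatic nerve stumps were sequenced with paired 150-base reads, replicates 1 and 2 of each group on a NovaSeq X Plus and replicate 3 on a DNBSEQ-T7, per the labels. The authors deposited expected counts per gene, without any recorded scaling. HISAT2, StringTie, RSEM and DESeq2 are named in the submitters' processing notes without versions or roles, and neither genome build nor annotation is given in the sources used here. All 12 sample files hold 1 identical table, which was read once. Between 9.44% and 11.12% of a sample's values were fractional, and all were rounded before testing.

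Genes were filtered with filterByExpr (minimum count 10), scaled with TMM and tested with edgeR 4.0.16 (R 4.3.3, limma 3.58.1) in 1 quasi-likelihood fit of 12 samples with a term per group, 8 residual degrees of freedom and no covariate. P-values were adjusted over the 15712 genes tested of 30562. The SE of a log2 fold change is its size over the root of the F statistic. The test was checked on simulated counts. No replicates agreed within sampling noise (chi-square per degree of freedom of at least 47.3). Alternatives were RLE scaling, no low-count filter, DESeq2 1.42.0, limma-voom, only the 2 groups compared, a replicate block, NovaSeq X Plus samples alone, each library left out and, chosen after seeing the data, plain library totals.

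All 48 channel genes were analysed and counted, a few genes are not reported by name here, and per-sample levels are given for the others called in any comparison, and partner lists name up to 4 genes of smallest p per comparison. In VP4:2 against CC4:2, deviations from the group means correlated at 0.12 to 0.43 in all 3 same-numbered pairs. VP4:2 replicate 1 correlated more with CC4:2 replicate 2 (0.18) than with CC4:2 replicate 1 (0.12). Whether the numbers pair the samples there is not settled, so calls that the replicate block ended are stated. The labels give same-numbered libraries the same sequencer and no shared animal or day, and the other 5 comparisons had pairs at or below 0.1. The channel genes and lists were chosen with earlier results of these data known. Promoters and gene order are from RefSeq (GRCr8), matched by symbol.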

Additional observations from a re-analysis of the deposited data

How the results depend on the processing

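None of the 56 calls of a channel gene in a comparison changed direction in any setting tried. All settings kept 2 of 3 calls in VP4:2 against CC4:2, 0 of 9 in VP4:2 against CC4:4, 0 of 8 in VP4:2 against Control, 7 of 18 in CC4:2 against CC4:4 and 9 of 18 in CC4:2 against Control. With a library left out the calls ran from 2 to 3 (2 higher, 0 to 1 lower) in VP4:2 against CC4:2, 0 to 6 (0 to 2 higher, 0 to 4 lower) in VP4:2 against CC4:4, 4 to 10 (1 to 8 higher, 2 to 3 lower) in VP4:2 against Control, 13 to 16 (8 to 11 higher, 5 lower) in CC4:2 against CC4:4, 16 to 22 (10 to 15 higher, 5 to 7 lower) in CC4:2 against Control and 0 to 1 (0 higher, 0 to 1 lower) in CC4:4 against Control. DESeq2 gave 7 calls (3 lower) in VP4:2 against CC4:2 and 14 (8 higher, 6 lower) in VP4:2 against Control, and limma-voom gave 2 lower in VP4:2 against CC4:2 and 2 lower in VP4:2 against CC4:4. Only the 2 groups compared gave 9 higher in VP4:2 against CC4:4, 3 higher in VP4:2 against Control and 8 higher in CC4:2 against Control. NovaSeq X Plus samples alone, which are fewer, gave 0 (0 higher, 0 lower) in VP4:2 against CC4:4 and against Control, 8 (4 higher) in CC4:2 against CC4:4 and 10 (6 higher) in CC4:2 against Control. The causes were not tested.

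With the replicate block, VP4:2 had 2 genes higher against CC4:4 and 3 higher against Control, and the block gave 2 calls in VP4:2 against CC4:2, 14 in CC4:2 against CC4:4 and 18 in CC4:2 against Control. In VP4:2 against CC4:2 the block ended the calls of Trpm2, Alox12, Slc4a4 and Car2 and no other call of a channel or partner gene. In the other 5 comparisons, 0 to 2 of 3 same-numbered pairs correlated above 0.1. Over all 18 pairs r was -0.40 to 0.43, and 3 of 12 samples correlated best with their own number. Plain library totals moved the median of all genes by 0.21 to 0.25 in the 4 comparisons of VP4:2 or CC4:2 with CC4:4 or Control, so fold changes there are relative to that shift. Over all genes, DESeq2 called 1861 in VP4:2 against CC4:2, against 979 with edgeR, and 3083 in VP4:2 against CC4:4, against 1762. Depth limits the genes under about 10 counts a library, such as Trpm6 in CC4:2.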
